A study of Mus musculus with 17 samples.

Results

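Integrins are membrane receptors built from an α and a β chain that hold cells to matrix or to other cells. Which α chain pairs with which β chain sets the ligand. The chain αv pairs with β3 or β5 to bind matrix proteins that carry an RGD sequence, such as osteopontin and vitronectin. The pair αvβ5 is known from macrophage-lineage precursors and αvβ3 is the main adhesion receptor of the osteoclast, the cell that resorbs bone, where it signals through Src and Syk to the actin ring. The chain β1 pairs with α4 or α5 to bind fibronectin, and β2, the leukocyte chain, pairs with αM, αX or αL to bind ICAM proteins, complement fragments and fibrinogen.

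Described here are the genes of these chains: Itgav, Itgb3, Itgb5, Itgb1, Itga4, Itga5, Itgam, Itgax, Itgal and Itgb2. They were chosen by name, 10 of 41388 genes in the count tables, and all 10 passed the filter on low counts in every comparison. Bone marrow macrophages (BMMs) were grown from mouse marrow with M-CSF, the macrophage growth factor, and OC cultures received M-CSF and 100 ng/ml RANKL, the cytokine that drives osteoclast formation, for 24 h. The study's general culture method used M-CSF conditioned medium for 3 days, then lifted cells and replated them with RANKL and 30 ng/ml M-CSF. How the BMM libraries were cultured is not described in the sources used here. RANKL thus cannot be told apart from replating, the form of M-CSF or time in culture. Changes with RANKL below mean differences of OCs from BMMs. Bap1flox mice carry loxP sites in both copies of Bap1, a deubiquitinase gene, and served as controls. Bap1LysM mice carry the same loxP sites with LysM-Cre, a Cre inserted at the lysozyme M gene Lyz2 and active in myeloid cells, neutrophils included as well as macrophages. The OC cultures came from 20-week-old male mice, and the age of the mice behind the BMM cultures is not given in the sources used here. Labels number 3 BMM libraries of each genotype, 6 Bap1flox OC libraries, and 5 Bap1LysM OC libraries (1, 2, 4, 5 and 6). The study calls the OC libraries biologically independent samples. No source used here says this of the BMM libraries, so p-values that involve them measure the spread between libraries.

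Libraries held 37967542 to 61369441 counts. The file names of replicates 1 to 3 take another form than those of replicates 4 to 6, and these are treated as 2 library sets. The mitochondrial share of counts was 0.481% to 1.074% in the first set and 2.364% to 5.264% in the second. Bap1 itself stood at 70.7 to 88.1 CPM (counts scaled to library size by the TMM method) in Bap1flox and 58.7 to 84.4 CPM in Bap1LysM libraries, and counts per gene do not separate the deleted exons. Lyz2 stood at 0.148% to 0.485% of the Bap1flox mean of its culture type in 6 Bap1LysM libraries, but at 45.7% in the BMM library labelled Bap1LysM 1 and 80.6% in the OC library labelled Bap1LysM 1. Both stood apart from the other Bap1LysM libraries at this gene, so results are also given without them. The study gives the mice as heterozygous for LysM-Cre, and which of these Lyz2 levels goes with that genotype was not tested. Osteoclast markers summed to 322 to 558 CPM in BMMs and 6297 to 16717 CPM in OCs, and macrophage markers to 8144 to 11141 CPM and 3302 to 5358 CPM. Both lists were thus detected in the OC cultures, and in bulk RNA fewer cells of a type cannot be told apart from less RNA per cell.

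In Bap1flox, OC cultures with RANKL had higher levels of the genes of the αvβ3 pair than BMMs, and a lower level of that of β5. Itgb3 rose 7.82-fold and Itgav 4.56-fold, whereas Itgb5 fell 3.17-fold. Itga5 and Itgax also rose, Itgam fell, and Itgb1, Itgb2, Itga4 and Itgal did not pass the test. Called here means an adjusted p (Benjamini-Hochberg, over all genes tested) under 0.05 in the quasi-likelihood test of edgeR. By that rule 6 of 10 integrin genes were called, 4 higher and 2 lower, where 64.6% of all 13415 genes tested were called, 31.7% higher and 32.9% lower (68% at an unadjusted p under 0.05, as for 8 of the 10). The share called among the integrins is thus near that of all genes, and the median log2 fold change of the 10 was -0.07, beside -0.05 for all genes. OC and BMM values did not overlap for 8 of the 10, where 71.3% of all genes had no overlap. This comparison used replicates 1 to 3, the ones with both cultures.

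**Figure D1:**
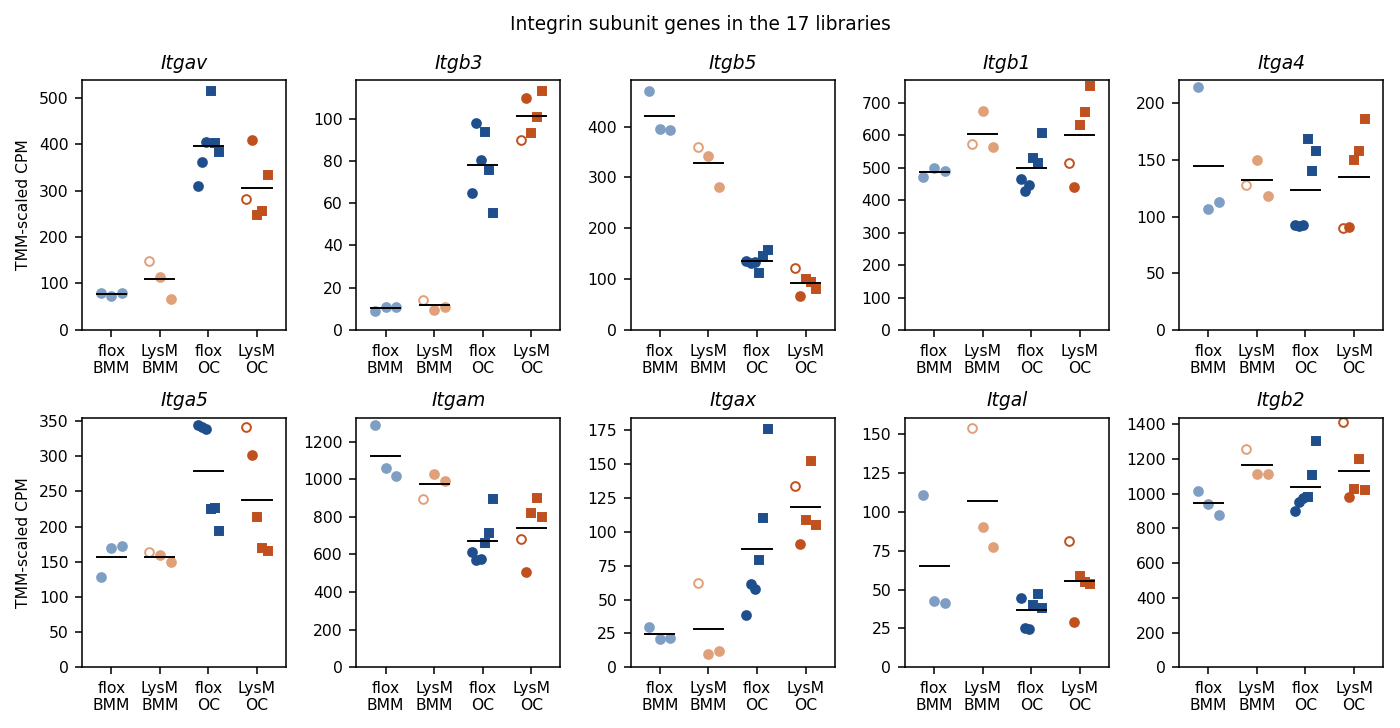
Levels of the 10 integrin genes as TMM-scaled CPM (vertical axes, from 0, one scale per gene) in the 4 groups (horizontal axes). Circles are replicates 1 to 3, squares replicates 4 to 6, open circles the libraries labelled Bap1LysM 1, and bars the group means. Itgb3 lies between 8.82 and 14.3 CPM in all BMM libraries and between 55.6 and 113 CPM in all OC libraries, and Itgb5 moves the other way.

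Itgb3 (ENSMUSG00000020689, plus strand of chromosome 11, 104608000 to 104670476 in build GRCm38, with 16 exon blocks) encodes the β3 chain. It was at 8.82, 11 and 11.1 CPM in the Bap1flox BMM libraries 1 to 3 and at 65.0, 97.9 and 80.4 CPM in the OC libraries of the same numbers. Every OC library lay far above every BMM library. Itgb3 differed by 2.97 log2 units (standard error, SE, 0.18, edgeR adjusted p = 1.79e-05). Replicates 4 to 6 of the Bap1flox OCs, at 93.6, 75.8 and 55.6 CPM, overlapped replicates 1 to 3 and reached lower.

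Itgav (ENSMUSG00000027087, plus strand of chromosome 2, 83724397 to 83806916, 32 exon blocks) encodes the αv chain shared by β3 and β5. The Bap1flox BMM libraries held 80.5, 73.2 and 79.9 CPM and the OC libraries 309, 361 and 404 CPM. The groups were well apart, with a log2 fold change of 2.19 (SE 0.11, edgeR adjusted p = 9.4e-06). Replicates 4 to 6 reached 515, 403 and 383 CPM. Itgav shares 634 exonic bases with Gm13684 on the opposite strand, which had 322 counts over all 17 libraries, and no source states whether strand was used in counting.

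Itgb5 (ENSMUSG00000022817, plus strand of chromosome 16, 33829665 to 33949153, 18 exon blocks) encodes the β5 chain. Its level was 471, 396 and 393 CPM in Bap1flox BMMs and 136, 132 and 133 CPM in OCs. These OC libraries differed from each other by less than 5 CPM. The second set spread more widely, at 113, 145 and 158 CPM in OC replicates 4 to 6, and all 6 OC libraries lay below the BMM range. Its log2 fold change was -1.66 (SE 0.08, edgeR adjusted p = 9.3e-06).

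Within each library, the ratio of Itgb3 to Itgb5 counts does not depend on scaling between libraries. In the Bap1flox BMM libraries the log2 ratio was -5.74, -5.17 and -5.15, and in OC libraries 1 to 3 it was -1.06, -0.43 and -0.72. The mean difference was 4.61 log2 units (SE 0.27), with no overlap and a two-sided exact permutation p of 0.1, the smallest that 3 against 3 libraries allow. Per kilobase of exon, Itgb3 made up 1.4% ± 0.292 (SD, n = 3) of the Itgb3 and Itgb5 sum in BMMs and 24.8% ± 5.60 (SD, n = 6) in all Bap1flox OCs. Itgb5 therefore still had more counts per kilobase than Itgb3 in each of the Bap1flox OC libraries, where the Itgb3 share was at most 32.0%. Values per kilobase, here and below, divide by the exonic length of the whole gene model. The lengths of the transcripts present were not measured, and shares and orders of genes depend on these lengths.

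**Figure D2:**
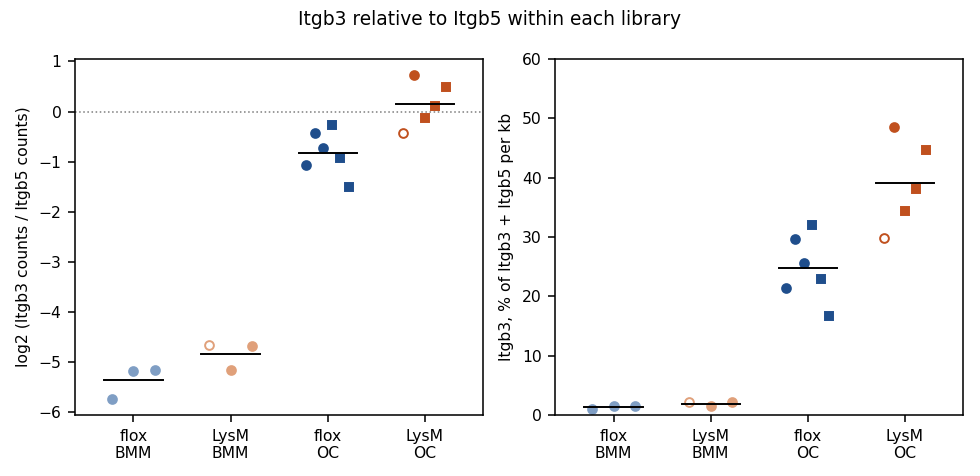
Itgb3 relative to Itgb5 in each library by group, as the log2 ratio of counts (left, dotted line at equal counts) and as the percent share of Itgb3 in the sum of both per kilobase of exon (right, from 0). Symbols are as in the plot of levels by library, and bars are group means. All 6 BMM libraries lie below -4.6 on the left, and the Bap1LysM OC libraries reach from -0.42 to 0.73, overlapping the Bap1flox OC range of -1.5 to -0.27.

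Sequences upstream of the start are shown for the gene that gains RNA and the gene that loses RNA within the αv system, Itgav and Itgb5, and for Itgam and Itgax, β2 partners that are neighbours on chromosome 7 with 1386 bases between them in the deposited gene models (11055 with the shorter Itgam end of GENCODE M21) and that changed in opposite directions. Of the 10 genes, 7 were matched by symbol in a RefSeq promoter table for GRCm38.p6, and Itgb3, Itgal and Itgb2 were not. Each sequence is the 250 bases before the RefSeq start, 5′ to 3′ on the plus strand. Capitals mark GGAAA, the core bound by NFAT factors, GAGGAA, a core bound by PU.1, TGANTCA, the AP-1 motif, and CACGTG, the E-box of MITF and related factors, on either strand. Where GAGGAA is followed by A, it overlaps GGAAA.
Itgav, chr2:83724147-83724396: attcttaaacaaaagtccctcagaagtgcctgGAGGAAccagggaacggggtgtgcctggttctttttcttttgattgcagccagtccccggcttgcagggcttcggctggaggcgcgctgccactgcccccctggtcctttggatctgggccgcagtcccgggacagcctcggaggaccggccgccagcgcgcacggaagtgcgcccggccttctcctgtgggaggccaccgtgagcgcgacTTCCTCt
Itgb5, chr16:33829415-33829664: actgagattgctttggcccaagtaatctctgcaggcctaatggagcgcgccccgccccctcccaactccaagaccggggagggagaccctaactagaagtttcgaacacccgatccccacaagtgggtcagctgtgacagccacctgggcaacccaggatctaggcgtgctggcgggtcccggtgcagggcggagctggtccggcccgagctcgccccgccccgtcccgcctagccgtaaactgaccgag
Itgam, chr7:128062390-128062639: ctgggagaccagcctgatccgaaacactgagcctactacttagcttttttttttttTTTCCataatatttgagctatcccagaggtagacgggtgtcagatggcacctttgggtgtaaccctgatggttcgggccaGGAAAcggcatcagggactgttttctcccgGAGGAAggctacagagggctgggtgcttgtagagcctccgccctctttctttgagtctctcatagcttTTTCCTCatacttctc
Itgax, chr7:128129300-128129549: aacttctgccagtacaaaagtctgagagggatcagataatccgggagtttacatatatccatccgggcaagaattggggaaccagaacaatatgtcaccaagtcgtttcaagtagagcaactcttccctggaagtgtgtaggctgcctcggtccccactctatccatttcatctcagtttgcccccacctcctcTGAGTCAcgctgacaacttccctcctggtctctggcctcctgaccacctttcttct
Itgav held GAGGAA at 2 places, beginning 218 and 7 bases before the start, and none of the other motifs. Itgb5 held none of the 4 in this window. Itgam held GGAAA at 3 places and GAGGAA at 2, and Itgax held a single AP-1 match that begins 56 bases before its start. Over 32851 promoter windows of the same length, GGAAA was present in 55.6%, GAGGAA in 23.3%, TGANTCA in 6.75% and CACGTG in 6.02%. A match is a string of letters and not a measured binding site, and no match says only that these letters are absent from the window.

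Itga5 (ENSMUSG00000000555, minus strand of chromosome 15, 103344289 to 103366763) encodes α5, the partner of β1 in the classical fibronectin receptor. Its level was 129, 169 and 173 CPM in Bap1flox BMMs and 344, 342 and 339 CPM in OCs 1 to 3. The OC libraries were all above the BMM libraries and close to each other, and the log2 fold change was 1.11 (SE 0.12, edgeR adjusted p = 0.000205). Replicates 4 to 6 stood lower, at 225, 226 and 194 CPM, and with all 6 OC libraries the log2 fold change was 0.85 (edgeR adjusted p = 0.00834).

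Itgb1 (ENSMUSG00000025809, plus strand of chromosome 8, 128685654 to 128733200), the β chain of the fibronectin receptors, had 473, 500 and 489 CPM in Bap1flox BMMs and 467, 429 and 447 CPM in OCs. The OC values lay just below the BMM values, with a log2 fold change of -0.13 (95% interval -0.28 to 0.01, edgeR adjusted p = 0.0975). Itga4 (ENSMUSG00000027009, plus strand of chromosome 2, 79255426 to 79333123) encodes α4, which binds VCAM1 and fibronectin. It stood at 214, 107 and 113 CPM in BMMs and 92.8, 91.4 and 92.6 CPM in OCs 1 to 3, with a log2 fold change of -0.66 (SE 0.25, edgeR adjusted p = 0.0543). The BMM library Bap1flox 1 stood far above the other BMM libraries, which lay close to the OC libraries. Blocked by replicate number, Itga4 passed at -0.58 (edgeR adjusted p = 0.0496), and without the BMM library Bap1flox 1 it passed at -0.22 (edgeR adjusted p = 0.00895). Without BMM library 2 or 3 the values were -0.81 and -0.78 (edgeR adjusted p = 0.0318 and 0.049). Replicates 4 to 6 of the OCs, at 168, 140 and 158 CPM, were in the BMM range, and with all 6 OC libraries the value was -0.20 (edgeR adjusted p = 0.534). Itga4 shares 1124 exonic bases with Cerkl on the opposite strand, which had 743 counts in all libraries.

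The β2 chain gene Itgb2 (ENSMUSG00000000290, plus strand of chromosome 10, 77530252 to 77565708) was at 1017, 939 and 876 CPM in Bap1flox BMMs and 899, 954 and 975 CPM in OCs. These ranges overlapped, and the log2 fold change was -0.01 (95% interval -0.18 to 0.15, edgeR adjusted p = 0.891). Its sign depended on the scaling, at 0.01 with RLE and 0.04 with upper-quartile factors.

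The α partners of β2 changed in different directions. Itgam (ENSMUSG00000030786, plus strand of chromosome 7, 128062640 to 128128160) encodes αM, also named CD11b, a receptor of macrophages and neutrophils. It fell from 1288, 1062 and 1016 CPM to 612, 573 and 575 CPM, with a log2 fold change of -0.94 (SE 0.09, edgeR adjusted p = 0.000151). All OC libraries were below all BMM libraries. Its gene model covers that of Gm49368 on the same strand, with 3450 exonic bases in common. Gm49368 has no entry of its own in the count tables, so reads in the shared bases are counted as Itgam. How much they add was not tested.

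Itgax (ENSMUSG00000030789, plus strand of chromosome 7, 128129547 to 128150656) encodes αX, or CD11c, a receptor of dendritic cells and some macrophages. It rose from 30, 21.2 and 21.6 CPM to 38.4, 61.6 and 57.5 CPM (log2 fold change 1.10, SE 0.21, edgeR adjusted p = 0.00277). The gap between the groups was small, from 30 to 38.4 CPM. Replicates 4 to 6 stood higher, at 79.0, 110 and 176 CPM, and with all 6 OC libraries the log2 fold change was 1.86 (edgeR adjusted p = 0.0043).

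Itgal (ENSMUSG00000030830, plus strand of chromosome 7, 127296260 to 127335137) encodes αL of LFA-1, a receptor of lymphocytes and other leukocytes. It was at 111, 42.8 and 41.6 CPM in BMMs and 44.6, 25.4 and 24.6 CPM in OCs. Library 1 was the highest in both cultures, and the groups overlapped. The log2 fold change was -1.05 (SE 0.43, edgeR adjusted p = 0.0662). Blocked by replicate number it passed at -0.96 (edgeR adjusted p = 0.00212), and it passed without BMM library 3 at -1.28 and without OC library 1 at -1.39 (edgeR adjusted p = 0.0489 and 0.0485).

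Among the counts per kilobase of these α chains, Itgam held 89.0% to 93.3% in the Bap1flox BMM libraries and 74.0% to 85.4% in the Bap1flox OC libraries. The share of Itgax was 3.11% ± 0.170 (SD, n = 3) in BMMs and 15.4% ± 4.95 (SD, n = 6) in OCs, with no overlap. Itgal held 3.76% to 7.70% and 3.16% to 6.21%, which overlapped.

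**Figure D3:**
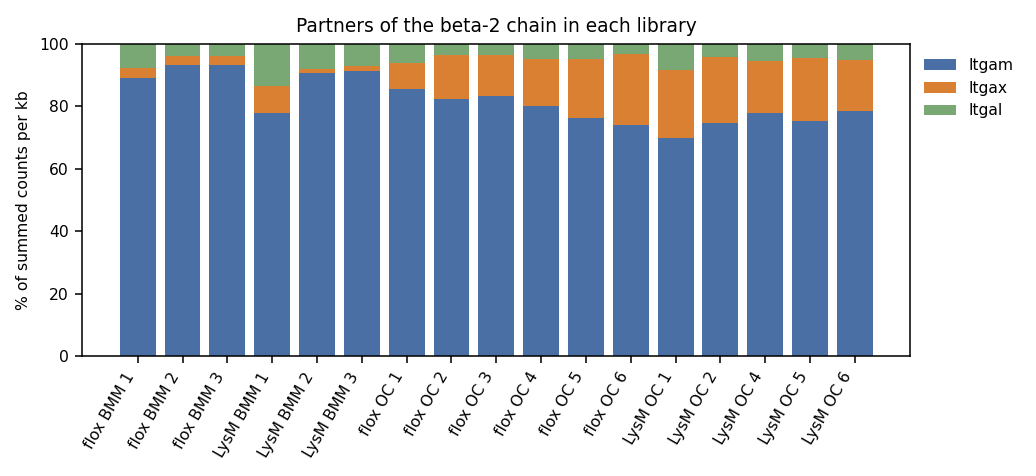
Share of Itgam, Itgax and Itgal in their summed counts per kilobase of exon (vertical axis, percent), 1 stacked bar for each of the 17 libraries. The Itgax share is 1.4% to 8.54% in BMM libraries and 8.43% to 22.9% in OC libraries, and the highest BMM value belongs to the library labelled Bap1LysM 1.

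Compared per kilobase of exon, Itgb2 was the highest of the 10 genes in all 4 groups, at 309 ± 23.2 CPM per kb in Bap1flox BMMs and 340 ± 48.7 in Bap1flox OCs (SD, n = 3 and 6). In Bap1flox BMMs, Itgam, Itgb5 and Itgb1 followed at 176, 125 and 119 CPM per kb, and the ranges of Itgb5 and Itgb1 overlapped. Itgb3 was the lowest at 1.74 ± 0.216 CPM per kb, below all libraries of its neighbour Itgax. In Bap1flox OCs the order was Itgb2, Itgb1, Itgam, Itga5, Itgb5, Itgav, Itgax, Itgb3, Itga4 and Itgal. In that order Itgb2 stood apart from Itgb1 and Itgam from Itga5, and each other pair of neighbours overlapped. Itgb3 reached 13.2 ± 2.76 and Itgav 36.8 ± 6.33 CPM per kb (SD, n = 6), so the αv gene had more counts per kilobase of its gene model than the β3 gene.

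The same question was asked in Bap1LysM cultures with 2 OC and 3 BMM libraries. Itgb3, Itgav and Itga5 rose and Itgb5 fell, 4 of 10 genes called, where 19.6% of all 12998 genes tested were called, 11.4% higher and 8.2% lower. At an unadjusted p under 0.05 there were 7 of 10, beside 37% of all genes. OC and BMM values did not overlap for 8 of the 10, as for 56.1% of all genes. The median log2 fold change of the 10 was -0.15, beside 0.01 for all genes.

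Itgb3 was at 14.3, 9.58 and 11 CPM in Bap1LysM BMMs and at 90.0 and 110 CPM in OCs 1 and 2. Its log2 fold change of 3.11 (SE 0.21, edgeR adjusted p = 0.00381) passed in all alternatives with at least 2 OC libraries and whichever BMM library was left out. Itgav was at 148, 115 and 65.9 CPM in BMMs and 281 and 408 CPM in OCs, a wider spread than in Bap1flox. The log2 fold change was 1.66 (SE 0.35, edgeR adjusted p = 0.0298). Leaving out the libraries labelled Bap1LysM 1 leaves 1 OC against 2 BMM libraries, where the OC library has no replicate and is assumed to vary like the BMM libraries. Values without them are given here as log2 fold changes with no p-value, and Itgav was then at 2.20. Itgb5 fell from 359, 342 and 282 CPM to 121 and 66.2 CPM (log2 fold change -1.81, SE 0.29, edgeR adjusted p = 0.0162), and was at -2.21 on the log2 scale without the libraries labelled Bap1LysM 1. Itga5 rose from 164, 159 and 149 CPM to 341 and 301 CPM (log2 fold change 1.03, edgeR adjusted p = 0.0104).

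Calls other than that of Itgb3 were lost without BMM library 2 and without BMM library 3, fits of 2 against 2 libraries. Those of Itgb5 and Itga5 held in the fit without BMM library 1. Without BMM library 2 the adjusted p from edgeR was 0.0928 for Itgav, 0.064 for Itgb5 and 0.0598 for Itga5, and without library 3 it was 0.0716, 0.0626 and 0.0607. The log2 fold changes stayed near those with all libraries, at 1.67 and 1.39 for Itgav, -1.80 and -1.90 for Itgb5 and 1.01 and 0.99 for Itga5. With OC library 1 as the only OC library, Itgav stood at 1.36.

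The other genes were not called with all 5 libraries and no replicate block. Itgax was at 62.1, 10.1 and 12.1 CPM in BMMs, the first value from the library labelled Bap1LysM 1, and at 134 and 91.4 CPM in OCs. Its log2 fold change was 2.01 (95% interval 0.07 to 3.96, edgeR adjusted p = 0.125). Without the libraries labelled Bap1LysM 1, it was 3.06, from 91.4 CPM in a single OC library against 10.1 and 12.1 CPM. Itgam stood at -0.71 and Itgal at -0.96 (edgeR adjusted p = 0.0552 and 0.218), and without those libraries at -0.97 and -1.5. Itga4 stood at -0.54 (adjusted p = 0.0502), Itgb1 at -0.33 (adjusted p = 0.209) and Itgb2 at 0.04 (adjusted p = 0.905, all from edgeR). In the Bap1LysM libraries the log2 ratio of Itgb3 to Itgb5 was -4.65, -5.16 and -4.68 in BMMs and -0.42 and 0.73 in OCs 1 and 2. The difference of 4.98 (SE 0.60) had an exact permutation p of 0.2, the smallest that 2 against 3 libraries allow. Without the libraries labelled Bap1LysM 1 the difference was 5.65.

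Whether the RANKL response differed between genotypes was tested as an interaction in replicates 1 to 3. Of the 10 genes 0 were called by edgeR, as were 0 of 13637 genes tested, which is 0% (12.6% had an unadjusted p under 0.05, none of the 10 among them, and DESeq2 called 113 genes but 0 of the 10). The interaction was 0.13 for Itgb3 (95% interval -0.49 to 0.75), -0.15 for Itgb5 (-0.79 to 0.48) and -0.55 for Itgav (-1.40 to 0.30) in log2 units. All 3 intervals included 0 and spanned more than 1 log2 unit. For Itgax the interval, -1.04 to 2.83, was the widest of the 10.

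**Figure D4:**
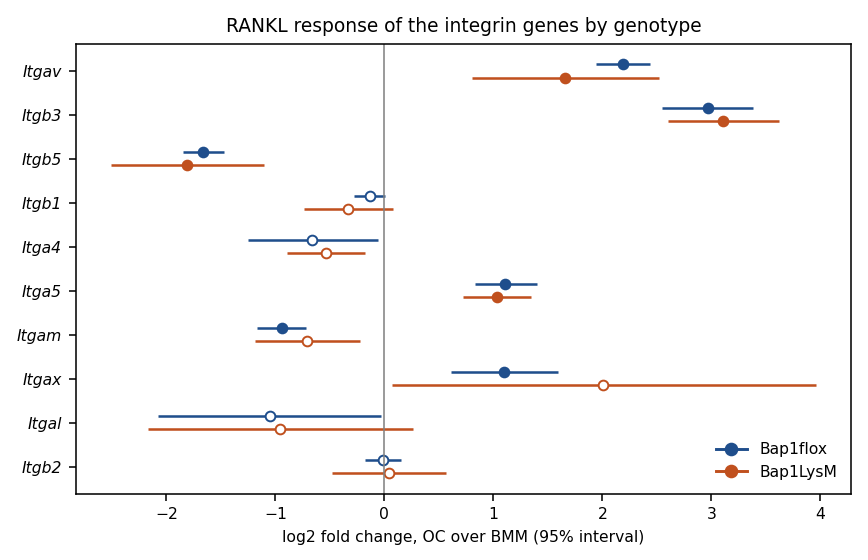
Log2 fold change of OC over BMM (horizontal axis) for the 10 integrin genes in Bap1flox (3 against 3 libraries) and Bap1LysM (2 against 3), with 95% intervals as lines. Filled points passed an adjusted p of 0.05 and open points did not. Itgb3 and Itgav lie to the right and Itgb5 to the left of 0 in both genotypes, and the intervals are wider in Bap1LysM for all genes but Itga4.

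In BMMs, without RANKL, no integrin gene was called between genotypes by edgeR, 0 of 10, where 5.32% of 13028 genes tested were called, 1.31% higher and 4.01% lower. At an unadjusted p under 0.05 there were 3 of 10, Itgb5, Itgb1 and Itgb2, where 26.2% of all genes passed. These 3 had no overlap between genotypes, as for 34% of all genes. Itgb5 was at 471, 396 and 393 CPM in Bap1flox and 359, 342 and 282 CPM in Bap1LysM, a log2 fold change of -0.37 (SE 0.12, edgeR adjusted p = 0.113). Itgb1 was at 473 to 500 CPM in Bap1flox against 573, 675 and 563 CPM in Bap1LysM, and Itgb2 at 876 to 1017 against 1258, 1115 and 1114 CPM, both with a log2 fold change of 0.29 (edgeR adjusted p = 0.12). DESeq2 called these 3, and voomWithQualityWeights of limma called Itgb2 and Itgal. The shares of all genes called in these fits are not given here.

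Blocked by replicate number, Itgb5 passed at -0.38 (edgeR adjusted p = 0.0393) and Itgal at 0.80 (edgeR adjusted p = 0.0171), beside 0.71 (adjusted p = 0.338) for Itgal without the block. Without the library labelled Bap1LysM 1, Itgal stood at 0.35 (edgeR adjusted p = 0.661). Itgal was at 154, 90.3 and 77.2 CPM in Bap1LysM BMMs, and library 1 was the highest in both genotypes. Itgb3, at 8.82 to 11.1 CPM in Bap1flox and 9.58 to 14.3 CPM in Bap1LysM, gave 0.16 (95% interval -0.28 to 0.60). Itgav gave 0.48 (edgeR adjusted p = 0.295), and 0.74 (edgeR adjusted p = 0.0392) without Bap1LysM BMM library 3, but 0.20 (edgeR adjusted p = 0.618) without the library labelled Bap1LysM 1. Itgax turned with 1 library: its log2 fold change was 0.20 (edgeR adjusted p = 0.871) with all libraries and -1.14 (edgeR adjusted p = 0.0465) without the library labelled Bap1LysM 1. The other values were -0.01 for Itga5, -0.14 for Itga4 and -0.22 for Itgam, none past an unadjusted p of 0.05.

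In OCs, Itgb5 was lower in Bap1LysM, and it alone of the 10 genes was called, where 15.8% of 12929 genes tested were called, 7.12% higher and 8.68% lower. At an unadjusted p under 0.05 there were 4 of 10, beside 30.5% of all genes, and the genotypes overlapped for all 10, whereas 9.46% of all genes had no overlap. In Bap1flox OCs, Itgb5 ranged from 113 to 158 CPM with a median of 134, and in Bap1LysM OCs 1, 2, 4, 5 and 6 it stood at 121, 66.2, 101, 94.1 and 80.1 CPM. The lowest 4 values of all belonged to Bap1LysM, while the library labelled Bap1LysM 1 lay within the Bap1flox range. The difference was -0.59 in log2 units (SE 0.14, edgeR adjusted p = 0.018), or a 1.5-fold difference. It was -0.72 (edgeR adjusted p = 0.00258) without that library. Itgb5 was called in all 11 fits that left out a library and in 11 of 12 other alternatives. The fit without the library labelled Bap1LysM 1 is counted in both, and the 12 include an alternative chosen after seeing the data. Within replicates 4 to 6 it was -0.63 (edgeR adjusted p = 0.00776), and within replicates 1 to 3, with 3 against 2 libraries, it was -0.52 (edgeR adjusted p = 0.349).

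Itgb3 ranged from 55.6 to 97.9 CPM in Bap1flox OCs (median 78.1) and stood at 90.0, 110, 93.4, 101 and 113 CPM in Bap1LysM OCs 1, 2, 4, 5 and 6. Bap1LysM values lay in the upper range of the Bap1flox values or above it. The log2 fold change was 0.34 (SE 0.14, 95% interval 0.03 to 0.65, edgeR adjusted p = 0.126), which did not pass. Replicates 1 to 3 alone gave 0.28 and replicates 4 to 6 alone 0.41. Without the library labelled Bap1LysM 1 it was 0.38 (edgeR adjusted p = 0.0978), and with the library set as a term 0.36 (edgeR adjusted p = 0.068). With the library set as a term and without the library labelled Bap1LysM 1, an alternative chosen after seeing the data, it passed at 0.42 (edgeR adjusted p = 0.0386).

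The ratio of both genes differed between genotypes in OCs. The log2 ratio of Itgb3 to Itgb5 ranged from -1.5 to -0.27 in Bap1flox OCs (median -0.825), and in Bap1LysM OCs 1, 2, 4, 5 and 6 it was -0.42, 0.73, -0.12, 0.11 and 0.50. The Bap1LysM libraries were shifted upward, and library 1 fell within the Bap1flox range. The mean difference was 0.98 log2 units (SE 0.28), with a two-sided exact permutation p of 0.0087 over 462 splits, which cannot give a p under 0.0043. The Benjamini-Hochberg adjusted value over the 4 ratio tests made was 0.0348, and 0.2 for the other 3. Per kilobase, Itgb3 made up 24.8% ± 5.60 (SD, n = 6) of the sum in Bap1flox and 39.1% ± 7.58 (SD, n = 5) in Bap1LysM. The difference was 1.13 (exact permutation p = 0.0095) without the library labelled Bap1LysM 1, 0.89 within replicates 1 to 3 and 1.07 within replicates 4 to 6, where 0.2 and 0.1 are the exact p-values and the smallest possible. In BMMs the mean log2 ratio was -5.35 in Bap1flox and -4.83 in Bap1LysM, a difference of 0.52 (SE 0.25, exact permutation p = 0.2).

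Itgav was at 309 to 515 CPM in Bap1flox OCs (median 393) and at 281, 408, 248, 257 and 334 CPM in Bap1LysM OCs 1, 2, 4, 5 and 6. Libraries Bap1LysM 2 and 6 were within the Bap1flox range and the other 3 were below it. The log2 fold change was -0.40 (SE 0.16, edgeR adjusted p = 0.102). It differed between sets, at -0.07 (edgeR adjusted p = 0.868) in replicates 1 to 3 and -0.67 (edgeR adjusted p = 0.00858) in replicates 4 to 6, a difference that was not tested itself. Without Bap1LysM OC library 2 it passed at -0.54 (edgeR adjusted p = 0.0184), and without the library labelled Bap1LysM 1 it was -0.38 (edgeR adjusted p = 0.126).

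**Figure D5:**
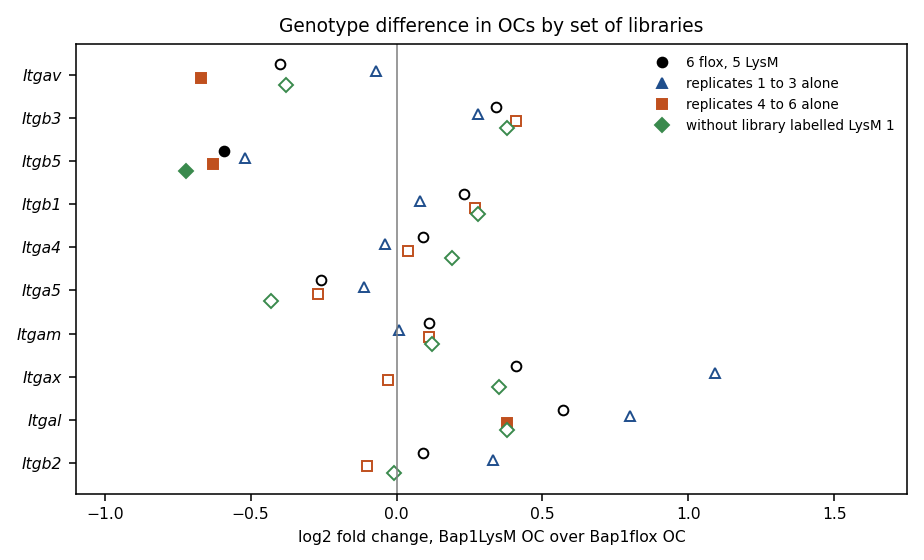
Log2 fold change of Bap1LysM over Bap1flox OCs (horizontal axis) for the 10 integrin genes, with all 11 libraries, within each library set, and without the library labelled Bap1LysM 1. Filled symbols passed an adjusted p of 0.05. Itgb5 lies between -0.72 and -0.52 in all 4, whereas Itgax moves from 1.09 in replicates 1 to 3 to -0.03 in replicates 4 to 6.

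Of the β2 family, Itgal had a log2 fold change of 0.57 between OC genotypes (SE 0.24, edgeR adjusted p = 0.131). It was at 24.6 to 47.0 CPM in Bap1flox OCs (median 39.0) and at 81.3, 29.0, 58.7, 54.8 and 53.7 CPM in Bap1LysM OCs. All but library 2 were above the Bap1flox range. Blocked by replicate number it passed at 0.44 (edgeR adjusted p = 0.0183), within replicates 4 to 6 at 0.38 (adjusted p = 0.0155) and without Bap1LysM OC library 2 at 0.73 (adjusted p = 0.0275, both from edgeR). It did not pass without the library labelled Bap1LysM 1 (0.38, edgeR adjusted p = 0.24), with the library set as a term (0.57, edgeR adjusted p = 0.0861), or with both (0.22, edgeR adjusted p = 0.333). Itgax gave 0.41 (95% interval -0.29 to 1.12), Itgam 0.11 (-0.22 to 0.43) and Itgb2 0.09 (-0.19 to 0.37). The β1 family gave 0.23 for Itgb1 (-0.05 to 0.52), 0.09 for Itga4 (-0.41 to 0.58) and -0.26 for Itga5 (-0.79 to 0.28), and every gene of both families overlapped between genotypes. Under voomWithQualityWeights of limma, 7 of the 10 genes were called: Itgav, Itgb5, Itgb1, Itga5, Itgam, Itgax and Itgal. The share of all genes called in that fit is not given here, so this count is not read as a result about the integrins.

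Neutrophil and dendritic cell markers moved with genotype in the same OC libraries. Of 9 neutrophil markers tested 7 were called, all higher in Bap1LysM, with a summed level of 64 to 187 CPM in Bap1flox and 176 to 629 CPM in Bap1LysM OCs. All 6 dendritic cell markers tested were higher, from a sum of 153 to 179 CPM to 168 to 534 CPM, and no gene of either list was at or under 3 counts in all libraries. The higher sums came mostly from 1 library set. In replicates 1 to 3 the neutrophil sum was 64 to 162 CPM in Bap1flox and 176 to 181 CPM in Bap1LysM. In replicates 4 to 6 it was 115 to 187 and 465 to 629 CPM. The dendritic cell sum in Bap1LysM was 168 to 237 CPM in replicates 1 to 3 and 353 to 534 CPM in replicates 4 to 6. T and NK cell markers summed to 4.02 to 9.36 and 3.02 to 16.3 CPM, B and plasma cell markers to 2 to 3.98 and 6.19 to 10.2 CPM, and mast cell and basophil markers to 0.579 to 1.96 and 2.97 to 5.52 CPM. Megakaryocyte markers summed to 27.2 to 58.7 and 28.5 to 57.1 CPM and endothelial markers to 42.3 to 50.2 and 29.0 to 60.7 CPM. At or under 3 counts in all libraries were Cd3g, Gzma, Igll1, Mcpt4, Tpsb2 and Cma1. The part of these cells in the levels of the β2 family was not tested. Stromal markers summed to 222 to 2212 CPM in Bap1flox OCs, with 1308 to 2212 CPM in replicates 1 to 3 and 222 to 379 CPM in replicates 4 to 6, to 122 to 1417 CPM in Bap1LysM OCs, and to 614 to 3163 and 450 to 1513 CPM in Bap1flox and Bap1LysM BMMs.

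The integrin genes also differed between the library sets of the Bap1flox OCs. Replicates 4 to 6 had no overlap with replicates 1 to 3 for 6 of the 10 genes, where 58% of 13061 genes had none. The integrins were thus near the share of all genes. Itgax, Itga4, Itgam, Itgb1 and Itgb2 were higher in replicates 4 to 6, with log2 ratios of the means of 1.21, 0.75, 0.37, 0.30 and 0.26, and Itga5 was lower at -0.67. Itgav, Itgb3, Itgb5 and Itgal overlapped between the sets. Overlap of 3 against 3 libraries does not show that the sets agree for these genes. The main comparison between genotypes in OCs had no term for the set, so its p-values carry any spread between sets for all 10 genes. With the set as a term, the edgeR adjusted p was 0.0636 for Itgav, 0.068 for Itgb3 and 0.00879 for Itgb5, beside 0.102, 0.126 and 0.018 without it.

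The 16 other integrin subunit genes of the list were mostly rare. In Bap1flox, 9 of them passed the filter, of which 2 rose and 4 fell with RANKL. Itga2, the α2 chain of a collagen receptor, was at 0.136 CPM in BMMs and 5.46 CPM in OCs (edgeR adjusted p = 8.47e-05), and Itgb7, a second partner of α4, rose from 39.0 to 154 CPM (edgeR adjusted p = 0.00125). Itga6, the α chain of laminin receptors, fell from 389 to 75.0 CPM (log2 fold change -2.38), and Itga9 from 17 to 4.70 CPM (-1.86). In Bap1LysM, 11 were tested, and Itga2 and Itgb7 rose again while Itga6, Itga8 and Itga9 fell, Itga6 from 280 to 45.0 CPM. Between OC genotypes 3 of 9 were called, all lower in Bap1LysM. Itga6 was at 48.0 against 81.7 CPM (log2 fold change -0.80, edgeR adjusted p = 0.00215) with no overlap, Itga8 at 0.664 against 2.84 CPM (-2.13) and Itgb7 at 104 against 143 CPM (-0.49, edgeR adjusted p = 0.043). In BMMs Itga9 alone was called, at -0.90.

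Ligand genes made by the cultures were tested too, 13 of a list of 20 in Bap1flox, of which 3 rose and 5 fell with RANKL. Edil3, an RGD protein that binds αvβ3, rose from 4.08 to 15.6 CPM, and Icam1, a ligand of β2 integrins, from 69.6 to 135 CPM. Adam15 and the matrix protein gene Thbs1 fell by 1.10 and 0.96 on the log2 scale. In Bap1LysM 2 rose and 4 fell of 14, Edil3 and Icam1 again among those that rose. Between OC genotypes 3 of 13 were higher and 2 lower in Bap1LysM. Spp1, which encodes osteopontin, a ligand of αvβ3, was at 431 against 837 CPM (log2 fold change -0.99, SE 0.11, edgeR adjusted p = 0.000428), and every Bap1LysM library was below every Bap1flox library. Icam1 was higher, at 223 against 144 CPM, as was Vcam1, a ligand of α4β1, at 12.1 against 3.82 CPM, and Adam9, whereas Icam2 was lower at 2.5 against 5.1 CPM. In BMMs 2 of 14 were higher, among them Jam2 at 4.29 against 0.52 CPM, beside Adam9.

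The genes listed as activators and adaptors act inside the cell, at integrin tails or upstream of them. Not all of them switch the receptor on. Of 32 listed, 29 were tested in Bap1flox, and 7 rose and 11 fell. The exchange factor genes Rasgrp3 and Rasgrp2, whose products load the GTPase Rap1, fell by 3.37 and 2.42 on the log2 scale, and Zyx, a focal adhesion protein gene, fell by 1.55. Rapgef1, another Rap1 exchange factor gene, rose by 1.54. In Bap1LysM these 4 were the genes called of 28 tested, with the same signs, 1 higher and 3 lower. Between genotypes, Apbb1ip, which encodes the Rap1 effector RIAM, was higher in Bap1LysM BMMs (1.03, 437 against 212 CPM, edgeR adjusted p = 0.0101) and OCs (0.96, 561 against 282 CPM, edgeR adjusted p = 0.00658). In OCs Parvg (0.77) and Rasgrp2 (0.68) were also higher, 3 of 28 in all with none lower, and in BMMs Rasgrp4 was lower (-1.27), the other of 2 called of 29.

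All 32 signalling genes listed were tested. In Bap1flox 7 rose and 13 fell with RANKL. Src, the kinase that acts with αvβ3 at the sealing zone, rose from 21 to 332 CPM (log2 fold change 3.97, SE 0.19), and Dock5, a Rac exchange factor gene, from 33.4 to 321 CPM (3.26). Fgr, a Src family kinase gene, and Pik3cb, a PI3-kinase gene, rose by 2.43 and 1.94. In Bap1LysM 7 rose and 5 fell, with the same 4 genes at 4.45, 3.71, 3.51 and 2.22. Between OC genotypes 3 were higher (Fgr, Syk and Ptk2) and 1 lower. Fgr was at 114 against 56.2 CPM (0.99, edgeR adjusted p = 0.00121) with no overlap, and Fyn, another Src family kinase gene, was lower at 17.7 against 35.3 CPM (-1.02). In BMMs 2 were higher, Arhgef7 and Ptk2, the focal adhesion kinase gene, the latter by 0.74.

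Membrane partners sit beside integrins or cut matrix next to them. Of 18 tested in Bap1flox 8 rose and 7 fell, and in Bap1LysM 7 rose and none fell. The matrix protease genes Mmp9 and Mmp14 rose from 44.8 to 6130 CPM and from 68.9 to 315 CPM in Bap1flox, and Cav1, the caveolin gene, from 3.12 to 92.6 CPM. Tspan7, a tetraspanin gene, rose from 0.787 to 3.97 CPM. Cav1 was lower in Bap1LysM in both cultures, at 41.4 against 125 CPM in OCs (-1.61, edgeR adjusted p = 0.00134) and 1.49 against 3.12 CPM in BMMs (-1.08, edgeR adjusted p = 0.0333). In OCs the other gene called was Cd37, which was higher, and in BMMs the tetraspanin gene Cd81 was also lower (-0.81).

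Genes with a pattern like Itgb3 over the 17 libraries were sought among 13379 genes by the root mean square difference of centred log2 CPM values. Chchd10, a mitochondrial protein gene, was nearest at 0.24 log2 units, before Gsap at 0.28 and the AP-1 factor gene Fosl2 at 0.29. For Itgb5 the nearest were Dok4 at 0.19, Ppp1r3b at 0.20 and Zbtb4 at 0.21. The libraries share group and set, so these are descriptions of a pattern.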

How the data were processed

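RNA-seq libraries of 17 cultures were analysed. The authors aligned reads to GRCm38 with STAR 2.5.1a and counted reads per gene with featureCounts 1.4.6-p5, keeping those that aligned to 1 place and 1 gene, per the labels and methods. The deposited counts are not normalized. The deposited CPM values equal count over library total and the deposited RPKM values equal CPM over gene length in kilobases, within 5.09e-11, and only counts and lengths were used. Of 41388 genes, 40340 had a symbol in GENCODE M21, and 355 rRNA genes were left out.

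Groups were compared with edgeR 4.0.16 (TMM factors, quasi-likelihood test, Benjamini-Hochberg over all genes tested, called at 0.05 for any fold) in R 4.3.3. Genes needed a CPM above 1 in 2 libraries, or 4 of 11 in the OC comparison. Ratios used a pseudocount of 0.5 and exact permutation tests. At these depths the members had 430 to 71361 counts per library, so the spread between libraries limits precision more than counting error does. Replicate pairs of every group differed by more than sampling noise (chi-square per gene 8.29 at least).

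Replicate numbers were checked for pairing by correlating deviations from group means of same-numbered libraries. For RANKL in Bap1flox they were 0.36, 0.22 and 0.30 around the mean of OC replicates 1 to 3, the libraries compared, and -0.2, 0.45 and 0.49 around the mean of all 6 OC libraries, so the pairing rests on that choice. Between BMM genotypes they were 0.49, 0.30 and 0.34. In the Bap1flox, BMM and OC comparisons a replicate block is given beside results it changes, and for RANKL in Bap1LysM, with 2 shared numbers, it is given with the alternatives. In OCs they were 0.57, 0.69, 0.34, 0.60 and 0.43, but -0.01, -0.14 and 0.01 for numbers 4 to 6 once set means were removed. Alternatives were DESeq2 1.42.0, voomWithQualityWeights (limma 3.58.1), RLE and upper-quartile factors, other filters, the block, other library selections and each library left out. All 10 members are described in each comparison. Of the other integrin, ligand, activator, signalling and membrane partner lists, at most the 4 genes with the largest fold change of at least 1.5 past the threshold were named per list and comparison, and of the similar genes the nearest 3. Genes that complete a small count (Itgb7, Adam9, Syk, Ptk2, Arhgef7, Cd37) or repeat across comparisons were named after their values were seen. Members and lists were chosen with earlier results of these data known. The scripts were tested on simulated counts.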

Additional observations from a re-analysis of the deposited data

How the results depend on the processing

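Calls of Itgav, Itgb3, Itgb5, Itga5, Itgam and Itgax for RANKL in Bap1flox held in all 9 alternatives, which called 6 to 9 of the 10 genes, and in all 6 fits without a library, which called 6 to 8. For RANKL in Bap1LysM the count was 4, but 7 with the replicate block, which added Itga4 (-0.61), Itgax (2.13) and Itgal (-1.27) but lost none of the 4. Only 2 numbers are shared there, with deviations correlated at 0.48 and 0.34 around set means and 0.32 and 0.25 otherwise. Fits with a lone OC library, which is assumed to vary like the others, are given no count. The count was 9 with all 17 libraries in 1 fit, and fell to 1 at the lowest when a BMM library was left out. Between BMM genotypes it was 0, but 3 with DESeq2, 2 with voomWithQualityWeights, 2 with the replicate block, 1 without the library labelled Bap1LysM 1, and 0 to 1 when a library was left out. Between OC genotypes it was 1, but 7 with voomWithQualityWeights, 2 with the replicate block, 0 in replicates 1 to 3, 3 in replicates 4 to 6, 3 with the library set as a term and no library labelled Bap1LysM 1, and 1 to 3 when a library was left out. The interaction stayed at 0 of the 10 in each fit. The shares of all genes called in the alternatives of this paragraph are not given here, so larger counts are not read as results about the integrins. The difference in the log2 ratio of Itgb3 to Itgb5 between OC genotypes, 0.98, was 0.89 and 1.07 within the sets, with p above 0.05, and 0.84 to 1.13 when a library was left out. No other call of a member changed with the block in the Bap1flox, BMM and OC comparisons beside those given in the report.

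Signs of log2 fold changes that turned were these. For RANKL in Bap1flox, Itgb2 was 0.01 with DESeq2 and with RLE factors, 0.07 with voomWithQualityWeights, 0.04 with upper-quartile factors, 0.03 without a filter, 0.09 with all 17 libraries and 0.16 with all 6 OC libraries, where Itgb1 was 0.05. For RANKL in Bap1LysM, Itgb2 was -0.003 with the replicate block, -0.09 with all 17 libraries, -0.16 without the libraries labelled Bap1LysM 1 and -0.06 with all 5 OC libraries, where Itga4 was 0.01. Between BMM genotypes, Itga4 was 0.18 and Itgax -0.37 with voomWithQualityWeights, Itga5 was 0.01 with filterByExpr and with all 17 libraries and 0.002 with the replicate block, where Itgax was -0.30, and Itgb3 was -0.02 and Itgax -1.14 without the library labelled Bap1LysM 1. Between OC genotypes, Itgb2 was -0.01 without the library labelled Bap1LysM 1, -0.10 in replicates 4 to 6 and -0.05 with the set term and without that library, where Itgam was -0.0005. Itga4 was -0.04 in replicates 1 to 3 and Itgax -0.03 in replicates 4 to 6. For the interaction, voomWithQualityWeights gave -0.23 for Itga4, 0.01 for Itga5, -0.26 for Itgal and -0.06 for Itgb2, upper-quartile factors -0.01 for Itgb2, the replicate block -0.04 for Itga4, -0.33 for Itgal and -0.01 for Itgb2, and all 17 libraries -0.12 for Itgal and -0.18 for Itgb2. Without the libraries labelled Bap1LysM 1 the interaction was -0.06 for Itgam, -0.48 for Itgal and -0.18 for Itgb2. When a library was left out, signs turned for these genes. Itgb2 ranged from -0.03 to 0.08 for RANKL in Bap1flox and from -0.22 to 0.28 in Bap1LysM. Between BMM genotypes Itgb3 ranged from -0.02 to 0.28, Itga4 from -0.32 to 0.24, Itga5 from -0.14 to 0.07 and Itgax from -1.14 to 0.60. Between OC genotypes Itga4 ranged from -0.05 to 0.21 and Itgb2 from -0.01 to 0.16. The interaction ranged from -0.02 to 0.30 for Itgb3, -0.65 to 0.21 for Itgb5, -0.29 to 0.28 for Itga4, -0.19 to 0.03 for Itga5, -0.00 to 0.42 for Itgam, -0.83 to 0.65 for Itgal and -0.24 to 0.28 for Itgb2. The causes were not tested.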
